A study of Mus musculus with 10 samples.

Results

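The matrix metalloproteinases (Mmp genes), the ADAMTS proteases (Adamts genes) and their inhibitors, the tissue inhibitors of metalloproteinases (Timp genes), were examined in the 2 layers of the mouse mammary epithelium. Members were all genes of the count table whose mouse symbol is Mmp, Adamts or Timp followed by a number, with an optional a or b for Mmp genes. This gave 46 of 24594 genes, of which 23 were Mmp, 19 Adamts and 4 Timp genes. The RNA came from mammary glands of virgin wild type C57BL/6J mice. Luminal cells line the inside of the ducts, basal cells form the contractile outer layer, and the 2 were separated by flow cytometry on the surface proteins EpCAM and CD49f. There were 5 libraries of each, all untreated and of the same genotype, and the labels give no age for them (the study's methods give only a range for its mice in general). Luminal and basal libraries with the same replicate number carry the same leading number in their descriptions, which was read as the animal. The comparison asked which genes differ between freshly isolated luminal and basal cells.

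The groups followed the cell type label of each sample. The titles of all 10 samples name the opposite cell type, whereas the source name and the letter in the library description go with the cell type label. All 9 luminal lineage markers examined were higher in the libraries labelled luminal and all 8 basal markers in those labelled basal. Library totals ran from 13203146 to 17998165 counted reads. CPM is the usual depth-scaled count, with totals scaled by TMM factors, and levels of different genes are compared only as CPM per kilobase of exon.

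Mmp proteins are zinc proteases that cut collagens, laminins and other matrix proteins. Most are secreted as inactive precursors, while the membrane-type MMPs are held on the cell surface. ADAMTS proteins are secreted proteases with thrombospondin repeats that bind matrix, and each subgroup has its own substrates, such as proteoglycans, procollagen propeptides or von Willebrand factor. Timp proteins block the active site of these enzymes. In the mammary gland this system is known for its part in the branching of ducts during puberty and in the remodelling of the gland after weaning.

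Most detected members were found in both layers, and most tested members differed in level. Of the 46 members, 30 reached a mean of at least 1 CPM in a group, 25 of them in luminal and 27 in basal cells. A filter on low counts left 29 members for the test, 9 Mmp, 16 Adamts and all 4 Timp genes. Of these 29, luminal cells had the higher level of 6 and basal cells that of 15 by edgeR's quasi-likelihood test at an adjusted p under 0.05. Over all 14609 genes tested, 33.6% were higher on the luminal side, 31.2% on the basal side, and 64.8% changed in either direction, so a call by itself sets a member apart little. The median log2 fold change (luminal against basal, the sign used throughout) was -0.84 over the 29 members and 0.05 over all genes tested. The filter bears on these counts: 7 members passed it in every library of the basal group only and 4 in every library of the luminal group only. The 7 were Adamts2, Adamts4, Adamts5, Adamts18, Adamts20, Mmp17 and Mmp23, and the 4 were Adamts12, Adamts13, Mmp19 and Timp4. The other 18 passed it in all 10 libraries. The CPM ranges of the groups were separate for 17 members, 4 of them luminal-high and 13 basal-high, beside 50.1% of all genes tested, 24.7% and 25.3% by direction. In bulk RNA, fewer cells that express a gene and less of its RNA per cell cannot be told apart.

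**Figure D1:**
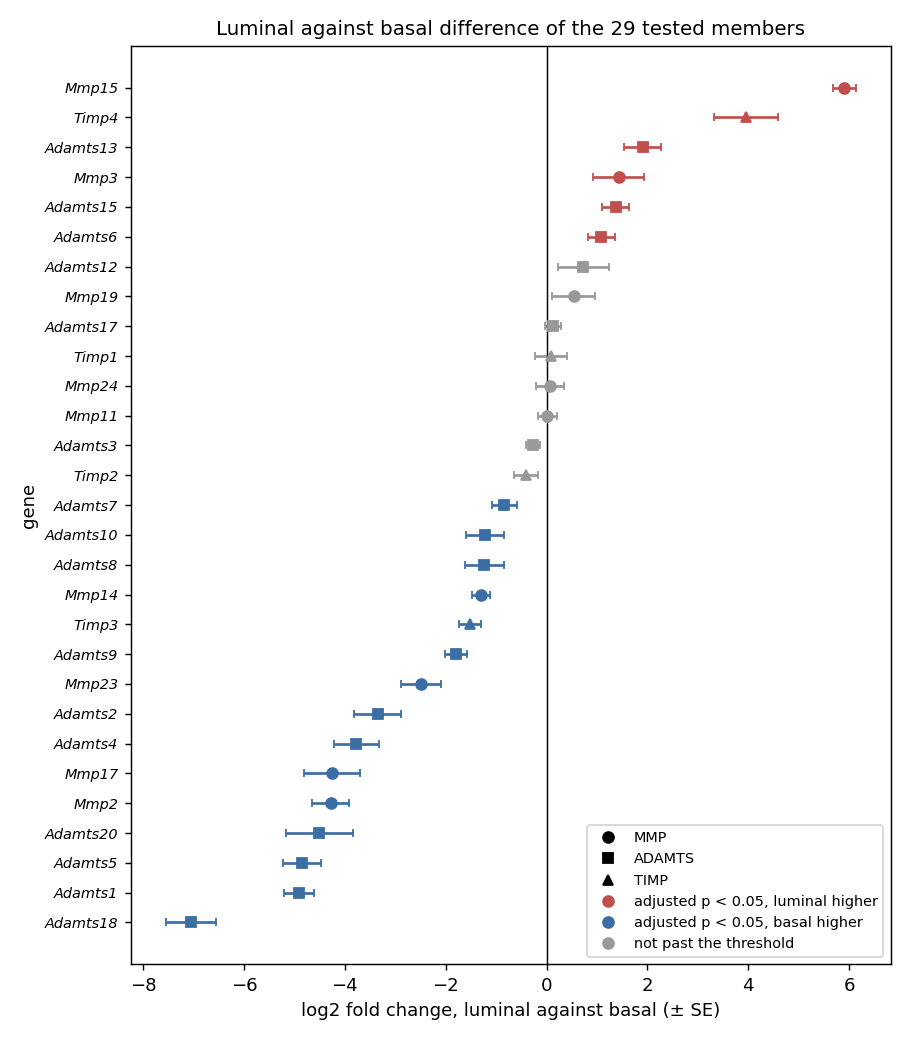
Log2 fold change of luminal against basal cells for each of the 29 tested members, with bars of 1 standard error (5 libraries a group); circles are Mmp, squares Adamts and triangles Timp genes. The 6 members higher in luminal cells run from 1.09 (Adamts6) to 5.91 (Mmp15), and the 15 higher in basal cells from -0.84 (Adamts7) to -7.05 (Adamts18).

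The membrane-type MMPs split between the layers. Mmp15 (MT2-MMP, Entrez 17388, chr8:95352296-95374293) is a transmembrane protease that can activate the precursor of MMP2. It stood at 798, 615, 619, 498 and 850.4 CPM in luminal replicates 1 to 5 and at 7.79, 10.8, 12.5, 14.2 and 11.03 CPM in basal replicates 1 to 5. Every luminal library was far above every basal library, with means of 676 ± 145 and 11.3 ± 2.36 CPM (SD, n = 5 each), a 60.0-fold ratio. The log2 fold change was 5.91 ± 0.23 (SE, edgeR adjusted p = 1.23e-10).

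Mmp14 (MT1-MMP, chr14:54431598-54442456), a surface collagenase and the main activator of pro-MMP2, went the other way. Luminal replicates 1 to 5 had 294, 216, 188, 184 and 205 CPM, and basal replicates 1 to 5 had 406, 603, 622, 617 and 434 CPM. The groups did not overlap, yet all luminal libraries held a sizeable level, so the difference was of degree (2.46-fold by the means, log2 fold change -1.30 ± 0.18, adjusted p = 2.34e-05). Mmp17 (MT4-MMP), which is tied to the membrane by a glycolipid anchor, was close to absent from luminal cells. Its luminal values were 0.188, 0.632, 0, 0.687 and 0.317 CPM and its basal values 5.80, 6.96, 7.89, 4.38 and 10.3 CPM (log2 fold change -4.26 ± 0.55, adjusted p = 1.04e-05). Mmp24 (MT5-MMP) did not pass the test, with 8.54 ± 3.28 CPM in luminal and 8.13 ± 2.06 CPM in basal cells. Its approximate 95% interval, from -0.56 to 0.69, leaves room for a moderate difference in either direction. The last transmembrane and the last glycolipid-anchored member, Mmp16 and Mmp25, were too low to test.

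Mmp2 (gelatinase A, chr8:92827290-92853421), the secreted protease that MT1-MMP activates, belonged to the basal cells. It measured 4.07, 6.16, 2.64, 1.298 and 8.56 CPM in luminal replicates 1 to 5, against 73.5, 106, 111, 79.0 and 77.7 CPM in the basal ones. The lowest basal library was well above the highest luminal library (19.7-fold by the means, log2 fold change -4.28 ± 0.38, adjusted p = 2.11e-07). The other gelatinase, Mmp9, did not rise above 0.552 CPM in any library and was not tested. Mmp23, a membrane protease of unusual domain makeup, was low in both groups, with 0.717 ± 0.303 CPM in luminal and 4.07 ± 1.09 CPM in basal cells, and was higher in basal cells (log2 fold change -2.49 ± 0.40, adjusted p = 7.39e-05). Mmp19, a secreted MMP, did not pass the test, with 2.31 ± 0.969 CPM in luminal and 1.59 ± 0.769 CPM in basal cells (interval -0.45 to 1.53).

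**Figure D2:**
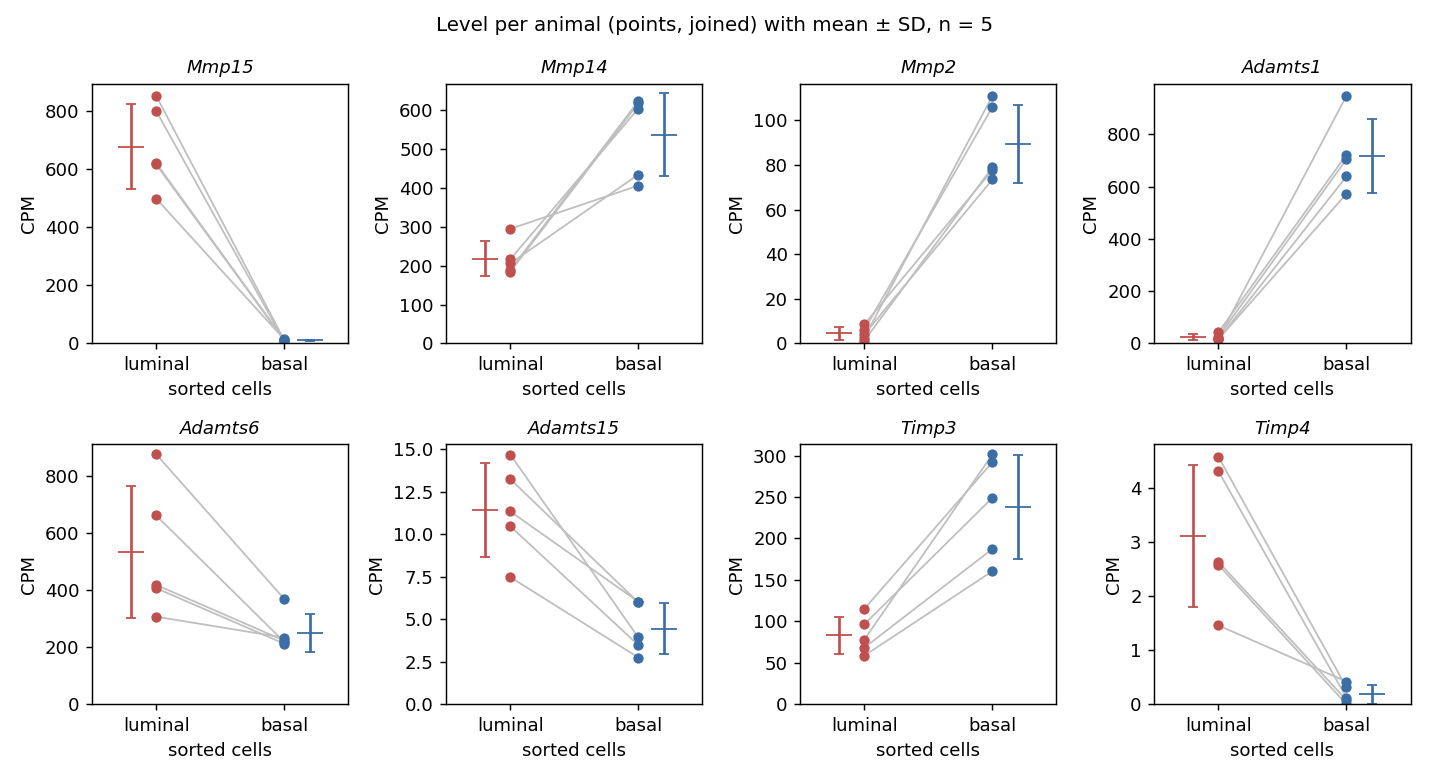
CPM of 8 members in each library, with luminal and basal libraries of the same replicate number joined by a line and the mean ± SD of 5 libraries beside the points. Mmp15, Adamts6, Adamts15 and Timp4 fall from luminal to basal in all 5 pairs, and Mmp14, Mmp2, Adamts1 and Timp3 are higher in the basal library of all 5 pairs.

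Of the stromelysins, Mmp11 (stromelysin 3) was level, with 15.7 ± 2.75 CPM in luminal and 15.5 ± 2.90 CPM in basal cells. Its log2 fold change was 0.02 ± 0.19, with an interval from -0.41 to 0.45 that holds any change to under 2-fold. Mmp3 (stromelysin 1, chr9:7445822-7455975), a protease with many matrix substrates that also activates other MMPs, varied widely within both groups. Luminal replicates 1 to 5 read 5.38, 7.37, 7.42, 16.6 and 23.2 CPM, and basal replicates 1 to 5 read 1.06, 4.84, 9.67, 3.69 and 3.12 CPM. The groups overlapped, and basal replicate 3 was above 3 of the 5 luminal libraries. The difference passed the test (log2 fold change 1.43 ± 0.51, adjusted p = 0.0233). The call was lost without luminal replicate 5 (log2 fold change 1.04, adjusted p = 0.0838) and without basal replicate 5 (1.325, adjusted p = 0.0554).

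Mmp3 lies in a run of 10 Mmp genes on chromosome 9 (chr9:7272514-7699585, GRCm38.p6 as in mm10), in the order Mmp13, Mmp12, Mmp1b, Mmp3, Mmp1a, Mmp10, Mmp8, Mmp27, Mmp20 and Mmp7, with no other protein-coding gene starting between them. The run holds all 4 collagenase genes, the matrilysin gene Mmp7 and the enamel protease gene Mmp20. Mmp3 was the only gene of the run that passed the count filter. Leaving out Mmp3 and Mmp13, the other 8 genes had at most 17 reads in any library and summed to 50 reads over the 5 luminal and 37 over the 5 basal libraries. Mmp1a had no read in any library. Mmp13 (collagenase 3) had 264 reads in basal replicate 4, or 16.5 CPM, while the other 9 libraries ranged from 0 to 1.38 CPM. It was not tested.

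**Figure D3:**
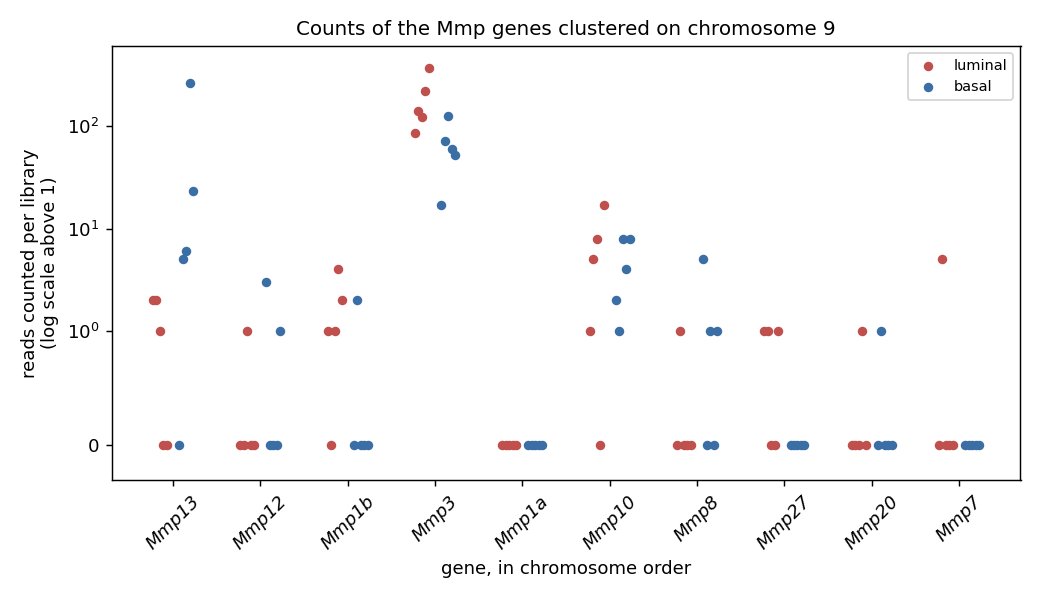
Reads counted per library for the 10 Mmp genes of the chromosome 9 run, in chromosome order, on an axis that is logarithmic above 1 read (red luminal, blue basal). Mmp3 has 17 or more reads in all 10 libraries, Mmp13 reaches 264 reads in basal replicate 4 alone, and the other 8 genes stay at 17 reads or fewer.

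The start regions of the run share a short motif. RefSeq promoter windows (250 bases before to 50 after a start, GRCm38.p6) were at hand for 32 of the 46 members, in 35 windows. The AP-1 motif TGANTCA, read on both strands (it is its own reverse complement apart from the N), occurred in 8 of these windows, all from the chromosome 9 run. It was found for 8 of the 10 genes of the run, Mmp8 and Mmp27 being the exceptions, and for none of the 22 other members with a window. The motif was in 8 of the 12 windows of the run, beside 7.81% of all 32851 promoter windows. Mmp12 and Mmp7 each also have a window without it. For Mmp12 that is the window at the start of the gene's span (chr9:7344147-7344446). AP-1 is the Fos and Jun family of transcription factors, long known from collagenase and stromelysin genes. The matches are shown with 15 bases on either side, since they set the run apart from the other members, with the motif in capitals, 5′ to 3′ on the strand of the gene:
Mmp13 (chr9:7272464-7272500, + strand): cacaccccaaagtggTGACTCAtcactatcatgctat
Mmp12 (chr9:7347315-7347351, + strand): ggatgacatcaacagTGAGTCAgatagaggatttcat
Mmp1b (chr9:7388098-7388134, - strand): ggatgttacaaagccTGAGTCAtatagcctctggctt
Mmp3 (chr9:7445761-7445797, + strand): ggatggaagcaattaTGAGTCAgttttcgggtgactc
Mmp1a (chr9:7464053-7464089, + strand): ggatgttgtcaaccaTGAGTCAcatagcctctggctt
Mmp10 (chr9:7502264-7502300, + strand): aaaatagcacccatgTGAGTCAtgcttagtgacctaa
Mmp20 (chr9:7628121-7628157, + strand): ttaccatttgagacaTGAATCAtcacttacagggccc
Mmp7 (chr9:7692012-7692048, + strand): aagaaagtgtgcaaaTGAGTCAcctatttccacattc

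The match began between 95 bases (Mmp20) and 35 bases (Mmp13) before the annotated start used for its window. A match is a description of these letters and does not show that a factor binds there. Of 8 genes with the motif, only Mmp3 was tested, and 7 were near 0 in most or all libraries.

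The windows of the run were also poor in G and C. Their GC content ran from 37.7% to 52.0% with a median of 41.7%, whereas the 23 windows of the other members ran from 53.3% to 80.0% with a median of 64.7%, and the median of all promoter windows was 52.7%. For illustration, the 250 bases before the start of Mmp3 are set beside those of Mmp15 and Adamts1, the highest members by CPM per kilobase in luminal and in basal cells, with each CG pair in capitals:
Mmp3 (chr9:7445572-7445821, + strand): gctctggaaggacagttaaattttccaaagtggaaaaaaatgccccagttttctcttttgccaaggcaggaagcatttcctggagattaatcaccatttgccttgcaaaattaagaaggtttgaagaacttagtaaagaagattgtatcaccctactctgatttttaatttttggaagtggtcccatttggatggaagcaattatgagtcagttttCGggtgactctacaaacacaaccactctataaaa
Mmp15 (chr8:95352046-95352295, + strand): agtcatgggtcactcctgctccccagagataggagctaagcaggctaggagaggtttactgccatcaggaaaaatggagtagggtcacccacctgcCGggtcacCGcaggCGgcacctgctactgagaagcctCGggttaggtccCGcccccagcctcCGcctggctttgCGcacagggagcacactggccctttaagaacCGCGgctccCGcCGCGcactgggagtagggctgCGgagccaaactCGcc
Adamts1 (chr16:85803114-85803363, - strand): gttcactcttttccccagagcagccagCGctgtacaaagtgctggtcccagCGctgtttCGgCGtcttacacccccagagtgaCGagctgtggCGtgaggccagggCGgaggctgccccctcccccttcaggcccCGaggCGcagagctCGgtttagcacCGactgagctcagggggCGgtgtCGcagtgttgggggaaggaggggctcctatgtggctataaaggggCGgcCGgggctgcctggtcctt

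The Mmp3 stretch holds 1 CG pair, the Mmp15 stretch 14 and the Adamts1 stretch 15. The TEAD motif CATTCC (both strands) was found in the windows of Adamts13 and Timp1, 2 of 35, beside 14.7% of all windows, and the CArG box bound by SRF in none, beside 1.63%.

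The ADAMTS genes leaned to the basal side. Of 16 tested, 3 had the higher level in luminal and 10 in basal cells, beside 33.6% and 31.2% of all genes tested. The groups did not overlap for 2 and 8 of them, beside 24.7% and 25.3% of all genes tested. Of the 10, Adamts2, Adamts4, Adamts5, Adamts18 and Adamts20 passed the count filter in every library of the basal group only. Of the 3, Adamts13 passed it in every library of the luminal group only. The subgroup of the hyalectanases cuts versican, aggrecan and related proteoglycans. All 7 of its members (Adamts1, Adamts4, Adamts5, Adamts8, Adamts9, Adamts15 and Adamts20) passed the test, 6 higher in basal and only Adamts15 higher in luminal cells. Over all genes tested, 64.8% passed it, and 31.2% were higher in basal cells. The median log2 fold change of the 7 was -3.77, the value of Adamts4. Those of the 7 past the count filter in all 10 libraries were Adamts1 (-4.91), Adamts9 (-1.79), Adamts8 (-1.235) and Adamts15 (1.37). Of the 6, Adamts4, Adamts5 and Adamts20 passed the count filter (0.651 CPM) in every library of the basal group only, so their being tested depended on their basal level.

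Adamts1 (chr16:85793827-85803113) was the most abundant ADAMTS gene of the basal cells per kilobase. Luminal replicates 1 to 5 had 18.6, 25.3, 16.3, 16.5 and 42.4 CPM, and basal replicates 1 to 5 had 948, 705, 573, 639 and 722 CPM. The basal libraries lay far above all luminal libraries (30.1-fold by the means, log2 fold change -4.91 ± 0.30, adjusted p = 4.68e-09). Its chromosomal neighbour Adamts5, a strong aggrecanase, lies 55043 bases away on the same strand and showed the same direction. Its luminal values were 0.563, 1.42, 1.78, 1.91 and 3.997 CPM and its basal values 32.7, 65.9, 64.0, 57.1 and 59.0 CPM. Basal replicate 1 was low among the basal libraries but still above every luminal library (log2 fold change -4.85 ± 0.38, adjusted p = 6.01e-08).

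Adamts4, the other classical aggrecanase, was near the detection limit in luminal cells. It had 1.75, 0.369, 2.02, 0.229 and 1.52 CPM there, and 14.1, 19.6, 17.1, 11.1 and 19.4 CPM in basal replicates 1 to 5 (log2 fold change -3.77 ± 0.45, adjusted p = 4.33e-06). Adamts9, a versicanase, gave 5.25, 8.64, 9.63, 7.02 and 7.17 CPM in luminal and 36.4, 29.1, 24.1, 21.3 and 20.2 CPM in basal libraries (log2 fold change -1.79 ± 0.22, adjusted p = 5.16e-06). Both genes were separated without overlap between the groups. Adamts20, which is required for pigment cell development, had 15 reads in all luminal libraries together, at 0.198 ± 0.239 CPM, against 4.53 ± 1.75 CPM in basal cells (log2 fold change -4.51 ± 0.67, adjusted p = 3.81e-05, and -5.45 without luminal replicate 5).

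Adamts15 and Adamts8 lie head to head on chromosome 9, 20109 bases apart, and went in opposite directions. Adamts15 read 14.7, 10.5, 11.3, 7.48 and 13.3 CPM in luminal and 3.93, 3.48, 6.04, 2.75 and 5.99 CPM in basal libraries. Its groups did not overlap (log2 fold change 1.37 ± 0.27, adjusted p = 0.000508). Adamts8 read 2.001, 0.895, 2.39, 2.90 and 2.54 CPM in luminal and 6.24, 8.12, 4.26, 2.38 and 4.196 CPM in basal libraries. Here basal replicate 4 fell within the luminal range, and the luminal library was the higher one in 1 of 5 pairs. The log2 fold change of Adamts8 was -1.23 ± 0.39 (adjusted p = 0.0124), and with the replicate number as a block it was -1.185 with an adjusted p of 0.055, which misses the threshold.

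Among the remaining ADAMTS genes, Adamts6 was the main one of the luminal cells. Adamts6 and Adamts10 are close relatives known for their link to fibrillin microfibrils, and they differed in opposite directions. Luminal replicates 1 to 5 had 307, 662, 419, 877 and 407 CPM of Adamts6, and basal replicates 1 to 5 had 234, 218, 223, 369 and 212 CPM. The ranges overlapped because of basal replicate 4, but the luminal library was the higher one in all 5 pairs (2.13-fold by the means, log2 fold change 1.09 ± 0.27, adjusted p = 0.00255). Adamts10 was at 1.94, 7.16, 6.81, 4.58 and 1.65 CPM in luminal and 11.4, 13.2, 8.28, 8.75 and 10.2 CPM in basal libraries. No basal library of Adamts10 fell into the luminal range (log2 fold change -1.22 ± 0.37, adjusted p = 0.0104).

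Adamts18, whose physiological substrates are less well known, had the most negative fold change of all tested members. It passed the count filter (0.651 CPM) in every library of the basal group only, so its being tested depended on its basal level. In luminal libraries it was at 0, 0.211, 0.184, 0 and 0.444 CPM and in basal libraries at 35.9, 18.6, 19.9, 16.4 and 29.7 CPM. The luminal libraries held 14 reads in all, against 1861 in the basal ones (143.5-fold by the mean CPM, log2 fold change -7.05 ± 0.50, adjusted p = 2.38e-08). Without luminal replicate 5 the log2 fold change was -7.71.

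Of the 3 procollagen N-propeptidases, which trim fibrillar procollagens, Adamts2 was higher in basal cells. Its 5 luminal values were 0.625, 2.48, 1.23, 0.458 and 0.317 CPM and its 5 basal values 15.5, 13.03, 8.51, 7.44 and 9.23 CPM (log2 fold change -3.35 ± 0.47, adjusted p = 2.24e-05, and -3.99 without luminal replicate 2). Adamts3 was present at similar levels in both layers, 22.1 ± 2.52 CPM in luminal and 26.6 ± 2.85 CPM in basal cells, and did not pass the test (interval -0.59 to 0.06). Adamts14 was not tested. It reached 4.19 CPM in basal replicate 4 and between 0.136 and 0.25 CPM in the other basal libraries, while luminal libraries ran from 0 to 1.84 CPM.

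Adamts7 and Adamts12 both cleave cartilage oligomeric matrix protein. Adamts7 had 20.3, 10.9, 12.8, 6.72 and 15.2 CPM in luminal and 19.5, 26.2, 23.9, 19.3 and 29.2 CPM in basal libraries. Luminal replicate 1 reached into the basal range (log2 fold change -0.84 ± 0.25, adjusted p = 0.00841). Adamts12 was at 1.35 ± 0.626 CPM in luminal and 0.811 ± 0.364 CPM in basal cells and did not pass the test (interval -0.41 to 1.88). Adamts13, which cleaves von Willebrand factor and is best known from liver, was low but higher in luminal cells without overlap, at 2.99 ± 0.645 against 0.793 ± 0.238 CPM (log2 fold change 1.91 ± 0.37, adjusted p = 0.00039). Adamts17 did not differ beyond its error, with 12.97 ± 1.88 and 11.9 ± 0.904 CPM and an interval from -0.26 to 0.52.

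**Figure D4:**
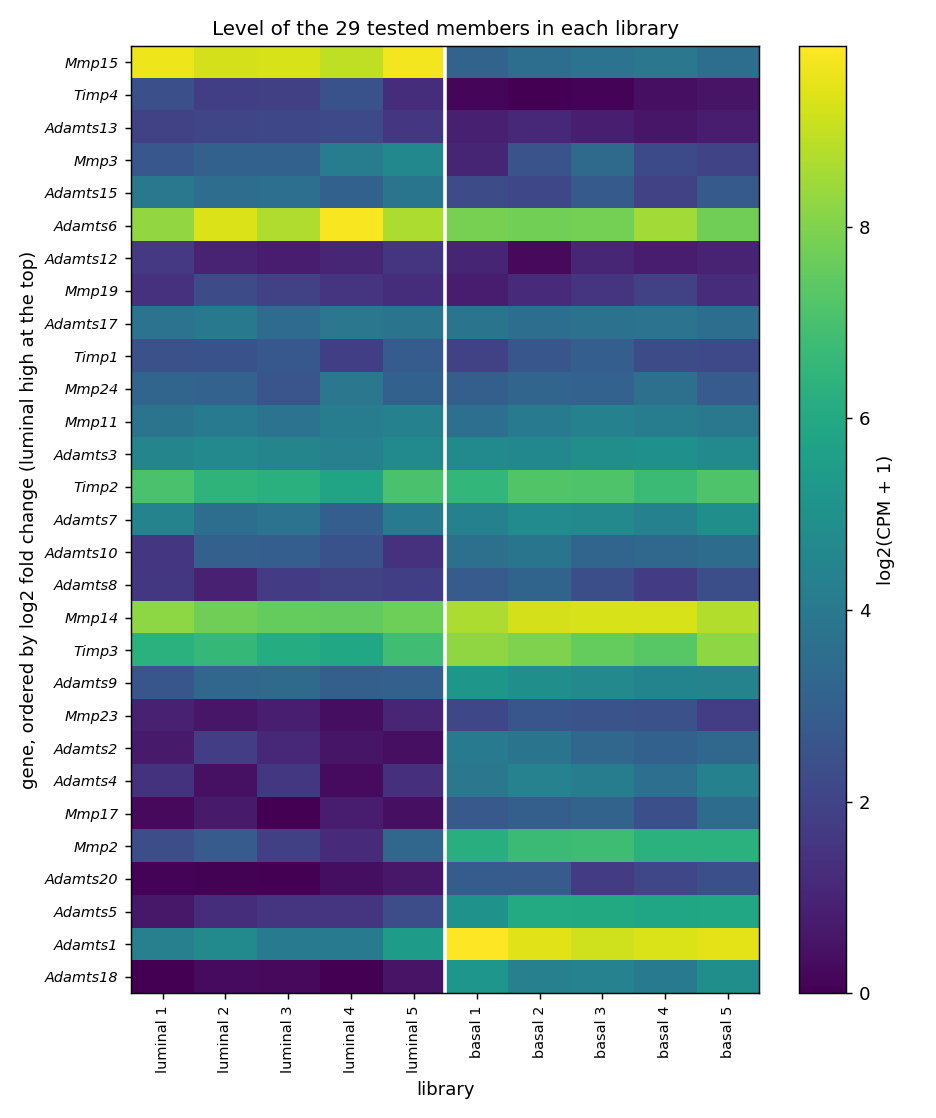
Log2(CPM + 1) of the 29 tested members in each of the 10 libraries, ordered by log2 fold change with the genes higher in luminal cells at the top. Along its row Mmp15 is brighter in the luminal and Adamts1 in the basal libraries, and libraries of a group resemble each other in nearly every row.

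The 4 inhibitors did not move together. Timp3 (chr10:86300412-86349505), which binds to matrix and inhibits ADAMTS and ADAM proteases besides MMPs, was higher in basal cells. Luminal replicates 1 to 5 had 77.9, 96.4, 68.2, 58.6 and 115 CPM, and basal replicates 1 to 5 had 301, 249, 187, 160.5 and 292 CPM. No luminal library reached the basal range (2.86-fold by the means, log2 fold change -1.52 ± 0.22, adjusted p = 2.97e-05). Timp2 (chr11:118301061-118355411), which also serves as the bridge between MT1-MMP and pro-MMP2, had 130.0, 85.3, 75.9, 53.1 and 131 CPM in luminal and 91.4, 148, 141, 105 and 143 CPM in basal libraries. These ranges overlapped, the basal library was the higher one in 4 of 5 pairs, and the test was not passed (log2 fold change -0.40 ± 0.23, adjusted p = 0.146, interval -0.94 to 0.14).

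Timp1 (chrX:20870166-20874737), a soluble inhibitor that is weak against most membrane-type MMPs, was low in both layers. It read 4.44, 4.63, 5.58, 2.60 and 6.28 CPM in luminal and 2.81, 5.18, 6.65, 3.94 and 3.60 CPM in basal libraries, with a log2 fold change of 0.09 ± 0.31 (adjusted p = 0.812, interval -0.62 to 0.81). Timp4 (chr6:115244444-115252205) was higher in luminal cells. Its luminal values were 4.32, 2.58, 2.64, 4.58 and 1.46 CPM and its basal values 0.125, 0, 0.0774, 0.313 and 0.42 CPM. The ranges did not overlap (16.7-fold by the means, log2 fold change 3.96 ± 0.63, adjusted p = 7.1e-05).

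The values of 3 Timp genes need care, because Timp1, Timp3 and Timp4 each lie inside a synapsin gene on the opposite strand and it is not known whether the counting used strand. The count of Syn3, the host of Timp3, exceeded that of Timp3 by only 15 to 63 reads in every library, and Syn3 had nearly the same log2 fold change of -1.48. Syn1 exceeded Timp1 by 3 to 66 reads in every library. The same reads thus appear to be counted for host and nested gene. Syn2, the host of Timp4, was at 91.0 ± 48.5 CPM in luminal and 7.12 ± 1.28 CPM in basal cells (log2 fold change 3.67 ± 0.31, adjusted p = 1.21e-07). It had 81 to 2722 more reads than Timp4 per library. Reads of Timp4 and of Syn2 cannot be told apart here, and the part of Syn2 in the luminal level of Timp4 was not tested. In all, 13 members overlap the span of another counted gene, and 4 more (Adamts7, Mmp11, Mmp12 and Mmp1b) share exon bases with one in another annotation. Neither 9530026P05Rik, beside Adamts9 (log2 fold change -0.09 ± 0.18), nor Mib2, beside Mmp23 (-0.08 ± 0.17), passed the test. Mmp15, Mmp14, Mmp2, Adamts1, Adamts5, Adamts6 and Adamts18 overlap no other counted gene.

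Scaled to exon length and summed by family, the 3 groups of genes differed in balance. The 23 Mmp genes together stood at 179 ± 32.8 CPM per kilobase in luminal and 134 ± 26.2 in basal cells, with the luminal library higher in 4 of 5 pairs. The 19 Adamts genes stood at 85.0 ± 28.4 in luminal and 195 ± 25.7 in basal cells, a 2.298-fold higher basal level with no overlap. The 4 Timp genes stood at 40.5 ± 12.0 in luminal and 66.5 ± 10.2 in basal cells, and the basal library was the higher one in all 5 pairs. The ranges of the Timp sums overlapped, from 24.5 to 55.1 in luminal and from 51.1 to 76.7 in basal libraries. The family sums were not tested.

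Few genes made up each sum. In luminal cells Mmp15 held 69.6% ± 3.30 of the summed Mmp level and Mmp14 held 20.5% ± 2.95 (SD, n = 5). In basal cells Mmp14 held 67.3% ± 1.298, Mmp2 held 20.04% ± 2.52 and Mmp15 held 1.57% ± 0.217. In both layers these 3 genes made up most of the summed Mmp level. Adamts6 made up 78.7% ± 7.84 of the summed Adamts level in luminal cells but 16.7% ± 4.71 in basal cells, where Adamts1 made up 68.9% ± 5.05, against 5.78% ± 3.21 in luminal cells. In luminal cells Timp2 held 59.4% ± 5.60 of the Timp level, Timp3 25.8% ± 4.204 and Timp1 13.3% ± 2.96. In basal cells Timp2 with 48.6% ± 6.95 and Timp3 with 43.8% ± 9.17 were within their spread of each other.

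In luminal cells the order of the Mmp genes per kilobase was Mmp15 (125 ± 26.9), Mmp14 (36.5 ± 7.51), Mmp3 (6.66 ± 4.24) and Mmp11 (5.64 ± 0.99), and the last 2 were within their spread of each other. In basal cells it was Mmp14 (90 ± 18), Mmp2 (26.5 ± 5.22), Mmp11 (5.57 ± 1.04), Mmp3 (2.48 ± 1.78) and Mmp15 (2.09 ± 0.437), where Mmp3 and Mmp15 were within their spread. All these levels divide by the summed exons of a gene, and would be too high for long genes if reads in introns were counted, which is not stated.

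**Figure D5:**
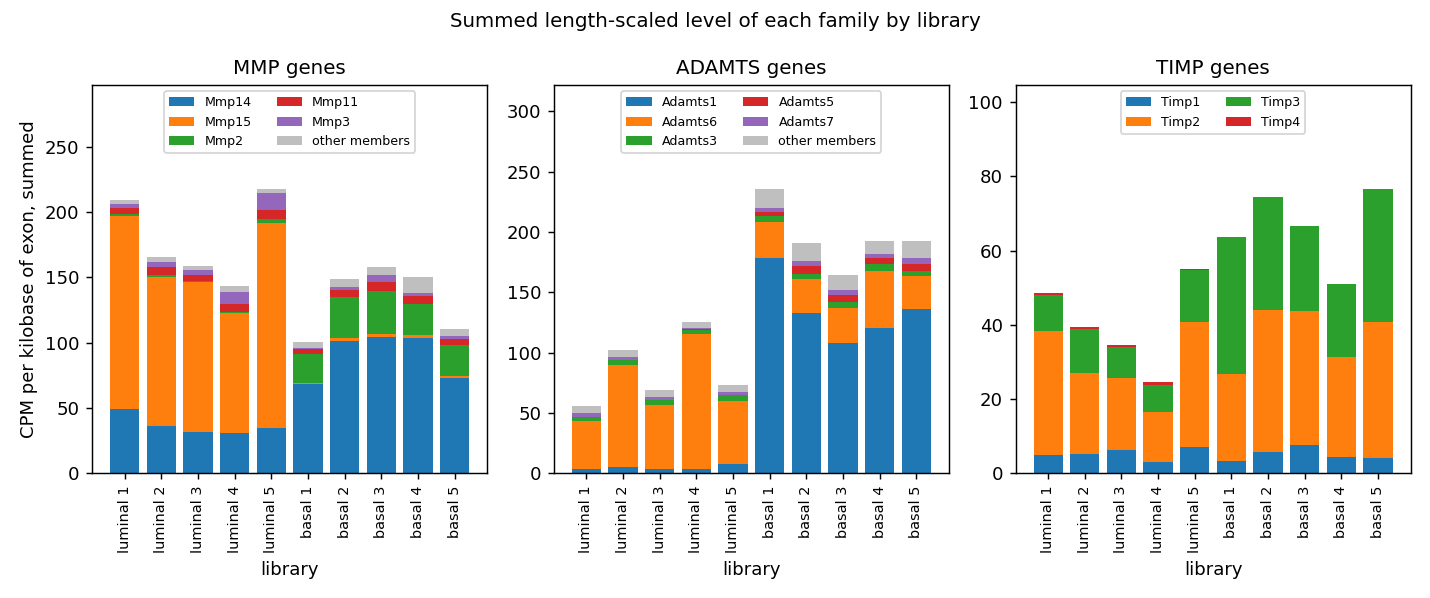
Summed CPM per kilobase of exon in each library for the Mmp, Adamts and Timp genes, stacked by gene, with the 5 highest genes of the Mmp and Adamts families shown apart and the others in grey. The Mmp bars are mostly Mmp15 in the 5 luminal and mostly Mmp14 in the 5 basal libraries, the Adamts bars mostly Adamts6 and mostly Adamts1, and the Timp bars mostly Timp2 and Timp3 in both, with Timp1 the next.

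The 17 members that were not tested comprised 14 Mmp and 3 Adamts genes. Apart from Mmp13 and Adamts14, none had more than 23 reads in any library, and their totals over 10 libraries ran from 0 (Mmp1a) to 76 reads. Tested with no filter, 1 of the 16 with any read was called, Mmp13 (log2 fold change -5.79, adjusted p = 0.00183), whose reads are mostly those of basal replicate 4. For the others no difference between the layers was detectable at this depth. They include the neutrophil collagenase Mmp8 and the macrophage elastase Mmp12.

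Genes around this protease system were counted in 5 lists. Of the 13 tested matrix substrates, 10 were higher in basal and 1 higher in luminal cells, with a median log2 fold change of -3.82, beside 31.2% and 33.6% of all genes tested. Of the 13, Eln, Fbn1, Fmod, Nid1 and Nid2 passed the count filter in every library of the basal group only. Versican (Vcan), the main substrate of the hyalectanases, was among the 10. The largest differences were those of Fmod, a small collagen-binding proteoglycan (19.9 ± 8.23 CPM in basal and 0.0355 ± 0.055 in luminal cells, log2 fold change -8.78 ± 0.54), Eln, the elastin gene (log2 fold change -7.36 ± 0.46), and Bgn, biglycan (log2 fold change -6.52 ± 0.35). Fmod had 3 luminal reads in all, and its log2 fold change was -9.71 without luminal replicate 1. That of Eln was -8.15 without luminal replicate 2. Dcn, decorin, was the only substrate higher in luminal cells (38.3 ± 33.4 against 12.0 ± 1.43 CPM, log2 fold change 1.67 ± 0.43, adjusted p = 0.00364). Dcn is also a fibroblast marker, its groups overlapped, and luminal replicate 1 alone reached 95.1 CPM. Without that library its log2 fold change was 1.02.

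Of 15 tested genes of protease activation and clearance, 3 were luminal-high and 7 basal-high (median -0.48), a share called of 66.7% that is close to the 64.8% of all genes. The 3 luminal ones are all serine proteases of the cell membrane: Tmprss2 (157 ± 18.2 against 5.22 ± 0.712 CPM, log2 fold change 4.91 ± 0.16), Hpn, hepsin (2.29 ± 0.17), and St14, matriptase (2.16 ± 0.16). The largest basal differences were those of Lrp1, the receptor that takes up proteases and their inhibitor complexes (24.0 ± 7.51 against 1857 ± 295 CPM, log2 fold change -6.27 ± 0.26), and of the plasminogen activators Plat (-5.62 ± 0.44) and Plau (-2.72 ± 0.23). Plat passed the count filter in every library of the basal group only. Over the alternatives its log2 fold change ran from -6.275 to -5.331.

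Of 9 other protease inhibitors tested, 6 were basal-high and 1 luminal-high (median -2.02), beside 31.2% and 33.6% of all genes tested. Of the 6, Spock1 and Wfikkn2 passed the count filter in every library of the basal group only. Spock2, a testican, had a log2 fold change of -6.53 ± 0.31 and Reck, a membrane-anchored inhibitor of MMPs, of -2.02 ± 0.21. Serpine2 was the luminal exception, at 7.44 ± 4.39 against 3.55 ± 0.836 CPM (log2 fold change 1.06 ± 0.37, adjusted p = 0.02), and its groups overlapped. It was not called without luminal replicate 5 (0.67, adjusted p = 0.0864), without basal replicate 2 (0.93, adjusted p = 0.0533) or by limma voom with all libraries (0.875, adjusted p = 0.0587).

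Among relatives of the ADAMTS family, 3 of 7 tested ADAM proteases were luminal-high and 2 basal-high (median 0.26), shares of 42.9% and 28.6% that are near those of all genes (33.6% and 31.2%). The sheddase gene Adam10 had 506 ± 41.1 CPM in luminal and 63.6 ± 12.8 CPM in basal cells (log2 fold change 2.99 ± 0.16), and Adam8 and Adam15 were also luminal (2.31 ± 0.42 and 0.62 ± 0.14), whereas Adam19 and Adam12, the meltrin genes, were basal (-6.52 ± 0.45 and -5.26 ± 0.30) and passed the filter in every library of that group only. Of 9 tested ADAMTS-like and astacin genes, 5 were luminal-high and 2 basal-high (median 0.97), beside 33.6% and 31.2% of all genes tested. Adamtsl1 and Adamtsl5 passed the filter in every library of the basal group only. Thsd4, an ADAMTS-like protein that binds microfibrils, was luminal (126 ± 55.3 against 2.15 ± 1.304 CPM, log2 fold change 5.87 ± 0.44), as were Adamtsl4 (2.09 ± 0.17) and Pcolce (2.10 ± 0.35). Bmp1, the procollagen C-proteinase that Pcolce enhances, was basal (-1.31 ± 0.18), and so was Adamtsl5 (-4.41 ± 0.37).

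Markers of other cell types were read beside these results. All 4 tested pericyte markers (Rgs5, Pdgfrb, Cspg4 and Kcnj8, of 5 listed) were higher in basal cells, beside 31.2% of all genes tested. Each of the 4 was above the count filter of 0.651 CPM in every basal library but at 0 in some luminal library. The 5 summed to 31.7 to 45.4 CPM in basal and 0 to 2.45 CPM in luminal libraries. Pericytes, like basal cells, are contractile, and their part in the levels of the members higher in basal cells was not tested. The 6 endothelial markers summed to 9.44 to 16.9 CPM in basal and 2.69 to 7.10 CPM in luminal libraries, with Cdh5 and Cldn5 higher in basal cells and neither Pecam1 (log2 fold change -0.47) nor Tek (0.65) passing the test. The 8 fibroblast markers summed to 27.9 to 117 CPM in luminal and 29.4 to 47.0 CPM in basal libraries, where Dcn was higher in luminal and Pdgfra higher in basal cells and Col1a1, Col1a2 and Col3a1 did not pass the test. The 8 macrophage and leukocyte markers summed to 19.7 to 29.2 CPM in luminal and 37.8 to 54.7 CPM in basal libraries, with Cd68 and Csf1r higher in basal but Lyz2, C1qa and C1qb higher in luminal cells. The defining markers Ptprc and Adgre1 were at or below 0.458 CPM in all 10. Neutrophil markers summed to at most 1.15 CPM and adipocyte markers to at most 2.60 CPM in any library, with Adipoq at 0 throughout.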

How the data were processed

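RNA of sorted wild type luminal and basal mammary epithelial cells (5 libraries each) was sequenced. The deposited values are unnormalized counts of reads for each gene, as whole numbers. Per the labels and the study's methods, adapters were removed with cutadapt (4.2 in the submitters' processing notes) and reads were aligned to mm10 with Bowtie2 (2.3.5.1 there). The counting tool, its annotation and its use of strand are not given in the sources used here. The methods describe fewer replicates per condition than the 5 used here. Reads of some nested genes appear to be counted for their host too. There were 446 pairs of a gene with a mean of at least 100 counts and a host gene whose span holds it. In 149 pairs the host count was at least as high in every library and its mean within 10% of that of the nested gene. In 101 pairs the host count was lower in some library.

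Entrez identifiers were matched to RefSeq symbols (24570 of 24594). Counts were filtered with filterByExpr (minimum count 10, minimum total 15; 14609 genes tested, 9985 dropped), scaled by TMM and compared with edgeR 4.0.16 (R 4.3.3) by the quasi-likelihood test, with no term beside cell type. Benjamini-Hochberg adjustment ran over all genes tested. SE was taken as |log2 fold change| over the square root of F. Intervals are approximate, from the SE and 8 degrees of freedom. The script was tested on simulated data. Exon lengths are merged GENCODE M21 exons. Promoter sequences are from RefSeq GRCm38.p6.

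Values in every library are given for the Timp genes and for called members with a group mean of at least 5 CPM, and other members by range or count. From each of the 5 lists up to 3 genes with the largest changes in each direction are named. Some genes these rules cover are not reported here. Members and lists were chosen with earlier results of these data known. Vcan and the Syn genes were named after their values were seen, as were Mmp13 and Adamts14. Same-numbered libraries share the leading number of their description, from which the pairing was taken. Their deviations from the group means correlated by 0.0367 on average (-0.105 to 0.169), against -0.00631 for other pairs. Nothing in the labels gives a sequencing batch. Alternatives were other scalings, filters and tests, a replicate block, thinning and leaving out each library.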

Additional observations from a re-analysis of the deposited data

Results flagged for a closer look

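Of 110 gene and family levels examined within a group of 5 libraries, 9 had a highest or lowest library set apart from the other 4 by Dixon's limit of 0.71, and chance gives about 1 in 20. In basal replicate 4, 4 genes were high: Mmp13 at 16.5 CPM (others 0 to 1.38), Adamts14 at 4.19 CPM (others 0.136 to 0.25), Adamts6 at 369 CPM (others 212 to 234) and Adam8 at 8.38 CPM (others 2.12 to 3.10). The summed luminal markers of that library, 1678 CPM, were within the range of the basal libraries, 1525 to 1899 CPM. Of the 9 markers, it was the highest basal library for Krt19 (157 CPM, basal range from 53.7), Prlr (2.19 CPM, from 0.0624), Epcam (419 CPM, from 246.5) and Cd24a (183 CPM, from 143), the lowest for Krt18 (421 CPM, range to 727) and Elf5 (0, to 0.499), and in between for Krt8, Kit and Esr1. Basal replicate 1 was low for Adamts5, at 32.7 CPM (others 57.1 to 65.9), and for St14, at 127 CPM (others 174 to 192). Luminal replicate 2 was high for Reck, at 11.6 CPM (others 5.88 to 7.23), and for Adamtsl5, at 1.16 CPM (others 0.25 to 0.508). Luminal replicate 5 was high for Mmp16, at 1.08 CPM (others 0.229 to 0.316). What sets these libraries apart was not tested.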

How the results depend on the processing

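Over the alternatives, 550 of 570 values of the 29 tested members kept their direction and their side of the threshold, 10 lost their call and 10 reversed. All reversals were of genes that did not pass the test. The log2 fold change of Mmp11 was -0.017 with DESeq2's size factors, -0.046 with no filter and -0.024 with the DESeq2 Wald test, and ran from -0.087 to 0.113 with a library left out. That of Mmp24 ran from -0.180 to 0.215 and that of Timp1 from -0.048 to 0.285 with a library left out. Tested against a 2-fold change, 3 members and 8 context genes were higher in luminal and 11 and 20 in basal cells, and Mmp3, Mmp14, Adamts6, Adamts7, Adamts8, Adamts10 and Adamts15 lost their call. The share of all genes called against a 2-fold change was not counted, so these counts have no background beside them. With no filter, 16 members were higher in basal cells, Mmp13 being added. With at least 10 counts required in every library, 19 members were tested, of which 8 were higher in basal and 4 in luminal cells. Of 37 context genes tested in this setting, 16 were higher in basal and 13 in luminal cells. Fewer genes were tested here, and the share of all genes called under this filter was not counted. With any library left out, there were 5 to 6 members higher in luminal cells and 15 higher in basal cells throughout. The replicate block took the count of members higher in basal cells from 15 to 14, through Adamts8, and left 6 higher in luminal cells. Scaling by library totals moved the median of all genes by 0.19 and upper-quartile scaling by 0.12 on the log2 scale. The summed Mmp level was higher in luminal cells, and the Adamts and Timp sums higher in basal cells, also without division by length (log2 ratios 0.46, -0.89 and -0.98). Depth limits the members not tested other than Mmp13 and Adamts14, in which basal replicate 4 stands apart. The planned search of protein motifs was not run, as no protein sequences were used here.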
